A study of Drosophila melanogaster with 2 samples.

Results

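The nuclear tRNA genes of Drosophila melanogaster were examined in a chromatin immunoprecipitation with sequencing (ChIP-seq) experiment on CkIIalpha-i1. They were taken as every gene on the 6 arms whose Ensembl symbol begins with tRNA:, which gave 295 of the 18164 genes annotated there with transposable element copies left out. Of these, 290 were annotated as tRNA genes and 5 as tRNA pseudogenes; 41 lay on 2L, 100 on 2R, 49 on 3L, 79 on 3R, 26 on X and 0 on 4. They were 71 to 186 bp long, with a median of 73 bp, and carried 22 different isotype names. A total of 77 genes had no other tRNA gene within 5 kb and are called isolated, and 218 had at least 1 and are called clustered.

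The series holds 1 group: whole embryos aged 0 to 18 h of a transgenic strain that makes CkIIalpha-i1 fused to eGFP, with an insertion aimed at that gene. Chromatin was sonicated to fragments of 200 to 800 bp and precipitated with an antibody against GFP, in 2 biological replicates. There was no second genotype, age or treatment, and control libraries were not used here. Every comparison below is between sets of genes within the same lists. Whole embryos mix all cell types, and the lists carry no read counts, so library depth is unknown. Sites were read from 4 thresholded lists and 4 ranked lists of peaks: a series-wide conservative list that set the replicates against each other, a second series-wide list called pooled here, and 1 list for each replicate. A ranked list holds all candidate peaks, ordered by an irreproducible discovery rate (IDR), the share of equally or better ranked peaks estimated not to be reproducible between the inputs; most candidates are weak. The conservative lists held 653 thresholded peaks and 137068 candidates on the 6 arms. A peak or candidate was assigned to a tRNA gene when its summit lay within 500 bp of the gene body.

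Transfer RNAs bring amino acids to the ribosome, and their genes are transcribed by RNA polymerase III. The promoter lies inside the gene: the factor TFIIIC binds box A and box B within the transcribed sequence and places TFIIIB upstream of the start, which in turn recruits the polymerase, and a run of T residues just after the gene ends transcription. Protein kinase CK2 (casein kinase II), whose catalytic subunit CkIIalpha is the namesake of CkIIalpha-i1, phosphorylates TFIIIB subunits and the polymerase III repressor Maf1 in yeast, and TFIIIB in human cells. CkIIalpha-i1 is named as an interactor of that subunit.

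A few tRNA genes that the results below return to are given first as sequence, read 5′ to 3′ on the gene's own strand from the RefSeq Release 6 assembly. Capitals mark matches to box A, searched as TNGCNNAG, and to box B, searched as GTTCNANNC, on the gene's strand. The 3 tyrosine genes form a single cluster, in which 1 gene had a thresholded peak and its near-identical neighbours had no candidate. Of the valine genes, tRNA:Val-CAC-2-1 comes from a pair and was among the 10 genes of highest candidate signal, and tRNA:Val-CAC-1-1 comes from a large cluster and had no conservative candidate. The cysteine and the arginine gene are isolated and were among those 10.
tRNA:Tyr-GTA-1-6 (chr3R:8668116-8668208, minus strand): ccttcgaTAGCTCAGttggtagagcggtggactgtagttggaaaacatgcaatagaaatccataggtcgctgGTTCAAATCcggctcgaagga
tRNA:Tyr-GTA-1-7 (chr3R:8668612-8668705, minus strand): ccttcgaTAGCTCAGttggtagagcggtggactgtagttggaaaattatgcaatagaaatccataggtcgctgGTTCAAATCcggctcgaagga
tRNA:Tyr-GTA-1-8 (chr3R:8669081-8669174, minus strand): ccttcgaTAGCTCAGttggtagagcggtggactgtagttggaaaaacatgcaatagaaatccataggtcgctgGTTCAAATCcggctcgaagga
tRNA:Val-CAC-2-1 (chr3R:7451297-7451369, plus strand): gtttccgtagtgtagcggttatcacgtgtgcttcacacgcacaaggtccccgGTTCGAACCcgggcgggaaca
tRNA:Val-CAC-1-1 (chr3R:17617761-17617833, plus strand): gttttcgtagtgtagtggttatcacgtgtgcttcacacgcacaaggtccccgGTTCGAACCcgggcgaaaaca
tRNA:Cys-GCA-4-1 (chr3L:21854094-21854165, minus strand): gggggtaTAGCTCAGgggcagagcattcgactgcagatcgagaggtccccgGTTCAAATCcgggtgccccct
tRNA:Arg-TCG-4-1 (chr3R:5388228-5388300, plus strand): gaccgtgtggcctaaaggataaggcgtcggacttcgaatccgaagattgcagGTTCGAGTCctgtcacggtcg

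The 3 tyrosine genes shared their first 45 and last 47 bases and differed only in between. The valine genes had the same base at 69 of 73 positions. Among all 295 genes, 274 (92.9%) held the box B letters, against 1.63% of the first 73 bp of 13945 protein-coding genes. Box A letters were in 147 genes (49.8%), against 5.80% of those windows. A run of TTTT lay within 50 bp after 294 genes (99.7%), against 53.8% of the windows that follow the protein-coding ones. A match to these letters is a description of the sequence. Genes with the box B letters had a conservative candidate in 59.5% of cases and the 21 genes without them in 57.1%.

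Thresholded peaks were rare at tRNA genes, and in the conservative list as rare as at other short genes. A single tRNA gene, tRNA:Tyr-GTA-1-8, had a thresholded conservative summit within 500 bp, which is 0.339% of 295 genes (95% exact binomial interval 0.00858 to 1.87%). The background was 0.335% of 1195 other genes of 200 bp or less and 2.62% of 13945 protein-coding 5′ ends. In the pooled thresholded list it was again 1 tRNA gene, the same, against 1.17% of the other short genes and 3.29% of protein-coding 5′ ends. Neither replicate's own thresholded list had a summit at any tRNA gene. A count of 0 of 295, taking 3 genes as the limit of a count of 0, allows a share of up to 1.02%. Of the other short genes, 0.753% had one in replicate 1 and 0 of 1195 in replicate 2. Of protein-coding 5′ ends, 1.74% had one in replicate 1 and 2.11% in replicate 2. None of the 77 isolated genes was among those with a thresholded peak, which by the same limit of 3 genes allows a share of up to 3.90%, and 1 of 218 clustered genes was (0.459%). These intervals and limits cover counting error only.

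The tRNA:Tyr-GTA-1-8 peak spanned 284 bp and its summit lay 227 bp before the 5′ end of the tRNA gene, inside introns of p (pink) and CG8036. The summit was also 217 bp before an annotated start of CG8036 and the tRNA gene 444 bp from a protein-coding start, so the tRNA gene and the CG8036 start cannot be told apart as the site. Its signal in the conservative list was 89.7, rank 369 of 137068 candidates, with an IDR of 0.00353, and its IDR in the pooled list was 0.00195. The peaks that the conservative list compared had signals of 38.4 and 45.6. Replicate 1's own ranked list gave a candidate of signal 38.4, whose summit lay 160 bp before the gene, and replicate 2's own list gave none within 500 bp. The neighbours tRNA:Tyr-GTA-1-7 and tRNA:Tyr-GTA-1-6 had no candidate within 500 bp in any ranked list and lay 696 and 1193 bp from the same summit. In the sequence of the peak, capitals mark the 21 bases around the summit; 38.4% of its bases were G or C.
Peak at tRNA:Tyr-GTA-1-8 (chr3R:8669259-8669542, plus strand): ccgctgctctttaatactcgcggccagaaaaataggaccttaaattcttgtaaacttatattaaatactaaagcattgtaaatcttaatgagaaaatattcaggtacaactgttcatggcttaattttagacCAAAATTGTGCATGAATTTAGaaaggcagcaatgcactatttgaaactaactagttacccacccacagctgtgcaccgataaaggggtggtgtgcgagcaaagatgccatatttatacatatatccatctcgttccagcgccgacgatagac

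Beyond 500 bp, 5 more tRNA genes had a conservative thresholded summit within 2 kb of their 5′ end, which made 6 of 295 (2.03%), against 4.59% of protein-coding genes. They were the 2 neighbouring tyrosine genes, tRNA:Ile-AAT-1-9 at 588 bp, tRNA:Val-CAC-2-3 at 1806 bp and tRNA:Lys-TTT-1-1 at 1876 bp. The median distance from a tRNA gene to the nearest conservative thresholded summit was 80.4 kb (63.9 kb for isolated and 88.4 kb for clustered genes), against 60.5 kb for protein-coding genes.

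Candidates were common at tRNA genes and about as common as at other short genes. In the conservative ranked list 175 of 295 tRNA genes (59.3%, 53.5 to 65.0%) had a candidate summit within 500 bp, against 57.3% of the other short genes and 72.3% of protein-coding 5′ ends. The pooled list gave 200 tRNA genes (67.8%), against 64% and 76.7%. Replicate 1 gave 208 (70.5%), against 60.9% and 72.2%, and replicate 2 gave 129 (43.7%), against 46.8% and 58.2%. The tRNA share was above that of the other short genes in replicate 1 and below it in replicate 2. Within the other short genes, the conservative share was 65.2% of 788 non-coding RNA genes, 64.3% of 28 snRNA genes, 55.0% of 260 snoRNA genes and 1.02% of 98 rRNA genes. Of the 175 tRNA genes, 108 had 1 candidate, 53 had 2 and 14 had 3 or more. A total of 97 genes had a candidate in all 4 ranked lists, and 45 had one in none. No share over other genes is set beside these counts, so they are not read as particular to tRNA genes.

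**Figure D1:**
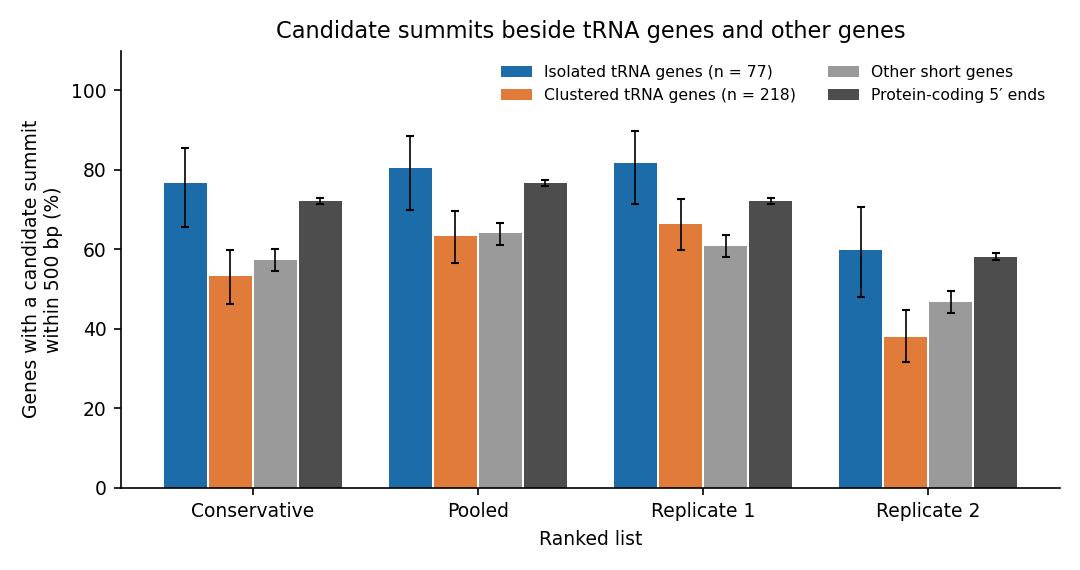
Share of genes (%) with a candidate summit within 500 bp in each ranked list, for isolated tRNA genes, clustered tRNA genes, other genes of 200 bp or less (n = 1195) and protein-coding 5′ ends (n = 13945). Error bars are 95% exact binomial intervals; isolated genes stood above clustered genes in each list, at 76.6% and 53.2% in the conservative one.

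Isolated tRNA genes had a candidate more often than clustered ones, gene by gene, in each of the 4 lists. In the conservative list 59 of 77 isolated genes (76.6%, 65.6 to 85.5%) and 116 of 218 clustered genes (53.2%, 46.4 to 60.0%) had one, a difference of 23.4 percentage points. The pooled list gave 62 isolated (80.5%) and 138 clustered genes (63.3%). Replicate 1 gave 63 isolated (81.8%) and 145 clustered genes (66.5%), and replicate 2 gave 46 isolated (59.7%) and 83 clustered genes (38.1%). No test was made, since clustered genes share windows and candidates. Counted by locus, the difference was 2.71 points: a candidate lay at 76.6% of the 77 isolated genes and at 51 of 69 clusters (73.9%), whose windows are longer.

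Per kilobase the order was the same. Merged windows of isolated genes held 99 conservative summits over 82.9 kb, or 1.19 per kb (exact Poisson interval 0.971 to 1.45), and those of clustered genes 121 over 154 kb, or 0.785 per kb (0.652 to 0.938). The rest of the arms held 1.02 per kb. In replicate 1 the densities were 1.12 per kb for isolated and 0.896 for clustered genes, against 0.824 for the rest of the arms. In replicate 2 they were 0.70 and 0.487 per kb, against 0.799. Isolated genes stood above the rest of the arms in replicate 1 and below it in replicate 2, and so did clustered genes. The intervals left out the arm-wide value for isolated genes in replicate 1 (0.906 to 1.37) and clustered genes in replicate 2 (0.383 to 0.610). They included it for isolated genes in replicate 2 (0.531 to 0.905) and clustered genes in replicate 1 (0.753 to 1.06).

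The share was lower in larger loci in the conservative list. It was 76.6% for single genes, 53 of 78 (67.9%) for genes in pairs, 34 of 62 (54.8%) in loci of 3 to 4 genes, 24 of 48 (50%) in loci of 5 to 7 and 5 of 30 (16.7%) in loci of 8 to 11. The order was not strict in the other lists, where loci of 5 to 7 genes stood above those of 3 to 4, at 41.7% and 30.6% in replicate 2. The group of 8 to 11 genes consists of only 3 clusters.

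**Figure D2:**
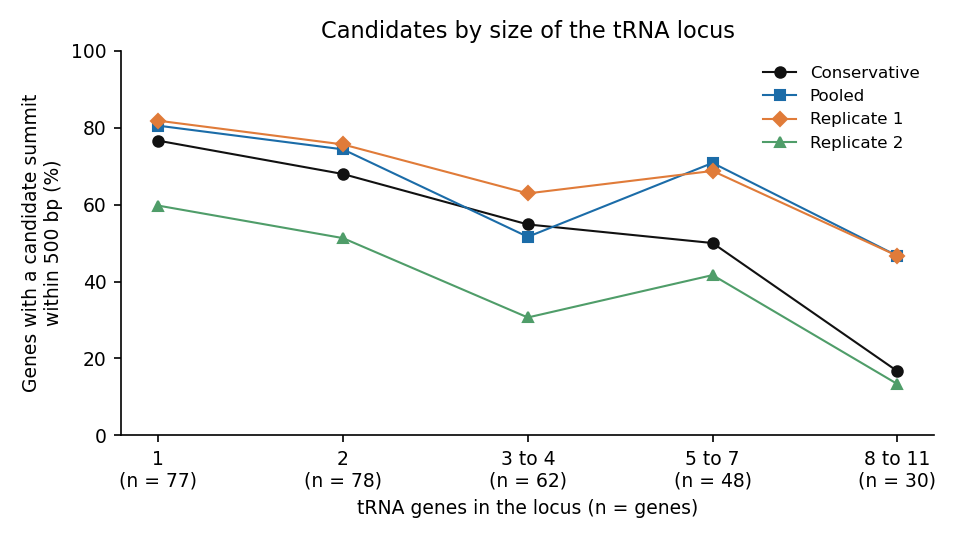
Share of tRNA genes (%) with a candidate summit within 500 bp by the number of tRNA genes in the locus (genes linked within 5 kb), 1 line for each ranked list. Genes in loci of 8 to 11 had the lowest share in each list, from 13.3% in replicate 2 to 46.7% in replicate 1 and the pooled list, against 59.7 to 81.8% for single genes.

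The 3 largest clusters differed from one another. The cluster of 11 arginine, asparagine, isoleucine and lysine tRNA genes on 2R (6161535 to 6171759) had no candidate in any of the 4 ranked lists, within its 10.2 kb span or within 500 bp of its genes. With 5 kb added on each side, 20.2 kb held 0 summits in the conservative list, 0 in the pooled list, 3 in replicate 1 and 0 in replicate 2. With 50 kb added on each side, 110 kb held 41 conservative summits (0.372 per kb, against 1.02 in the rest of the arms), 75 pooled ones (0.680, against 1.08), 86 in replicate 1 (0.780, against 0.824) and 23 in replicate 2 (0.209, against 0.799). All 11 genes had identical copies, 9 to 13 of each sequence in all. The cluster of 11 alanine, proline, threonine and valine genes on 3R (17617761 to 17631750) had a conservative candidate at 5 genes, with a highest signal of 26.0, a pooled one at 11, a replicate 1 one at 8 and a replicate 2 one at 4. In that cluster 10 of 11 genes had an identical copy. The cluster of 8 glutamate and initiator methionine genes on 2R (19725620 to 19729353) had none in the conservative list, 3 genes with one in the pooled list, 6 in replicate 1 and none in replicate 2. How many reads the authors' processing could place in repeated sequence was not tested.

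Identical copies were more frequent among clustered genes, and isolated genes had the higher share both with and without a copy. The 295 genes held 100 distinct sequences, with up to 13 identical copies, and 52 isolated (67.5%) and 186 clustered genes (85.3%) had an identical copy elsewhere. Among genes without a copy, 19 of 25 isolated (76.0%) and 16 of 32 clustered genes (50%) had a conservative candidate. Among genes with a copy, the counts were 40 of 52 isolated (76.9%) and 100 of 186 clustered genes (53.8%). By copies alone, the share was 61.4% for unique genes, 64.1% for 2 to 5 copies and 54.8% for 6 to 13 copies. In replicate 1 it was 82.5%, 71.8% and 64.4% in the same order, and in replicate 2 it was 45.6%, 47.6% and 40.0%.

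Isolated genes had the higher share in all 4 lists on 2L, 2R, 3L and X, and in 2 of 4 lists on 3R. On 2L, 14 of 15 isolated (93.3%) and 16 of 26 clustered genes (61.5%) had a conservative candidate; on 3L the counts were 12 of 14 (85.7%) and 20 of 35 (57.1%), and on X 10 of 10 and 12 of 16 (75%). On 2R they were 12 of 20 isolated (60.0%) and 27 of 80 clustered genes (33.8%). On 3R, 11 of 18 isolated (61.1%) and 41 of 61 clustered genes (67.2%) had one in the conservative list, and 44.4% and 47.5% in replicate 2. In the pooled list the 3R shares were 77.8% for isolated and 77.0% for clustered genes, and in replicate 1 they were 77.8% and 63.9%. All 2R genes together stood at 39% in the conservative list and 69% in replicate 1, and 27 of the 45 genes without a candidate in any list were on 2R. Without 2R, 82.5% of isolated and 64.5% of clustered genes had a candidate, a difference of 18.0 points.

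Summits were not concentrated at the start of tRNA genes in the conservative list. The highest-signal candidate lay before the 5′ end at 89 genes and after it at 86. In the conservative list, the first 200 bp from the 5′ end held 0.712 summits per kb, the 500 bp before it 0.868, and the stretch from 1 to 2 kb before it 0.969. Replicate 1 gave 0.831, 0.963 and 0.986 per kb for the same 3 stretches, and replicate 2 gave 0.322, 0.542 and 0.624. The first 200 bp had the lowest value of the 3 stretches in these 3 lists, and the difference was not tested. Within the gene bodies, which take in boxes A and B, lay 22 conservative summits, or 0.983 per kb (0.616 to 1.49). The 100 bp just before the 5′ end, where TFIIIB sits, held 27 conservative summits (0.915 per kb), 38 in replicate 1 (1.29 per kb, level with the highest bin within 2 kb) and 17 in replicate 2 (0.576 per kb). The replicates thus stood on opposite sides of their own arm-wide densities there. A summit near several clustered genes was counted for each of them in the stretches and bins, so no interval is given for these.

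**Figure D3:**
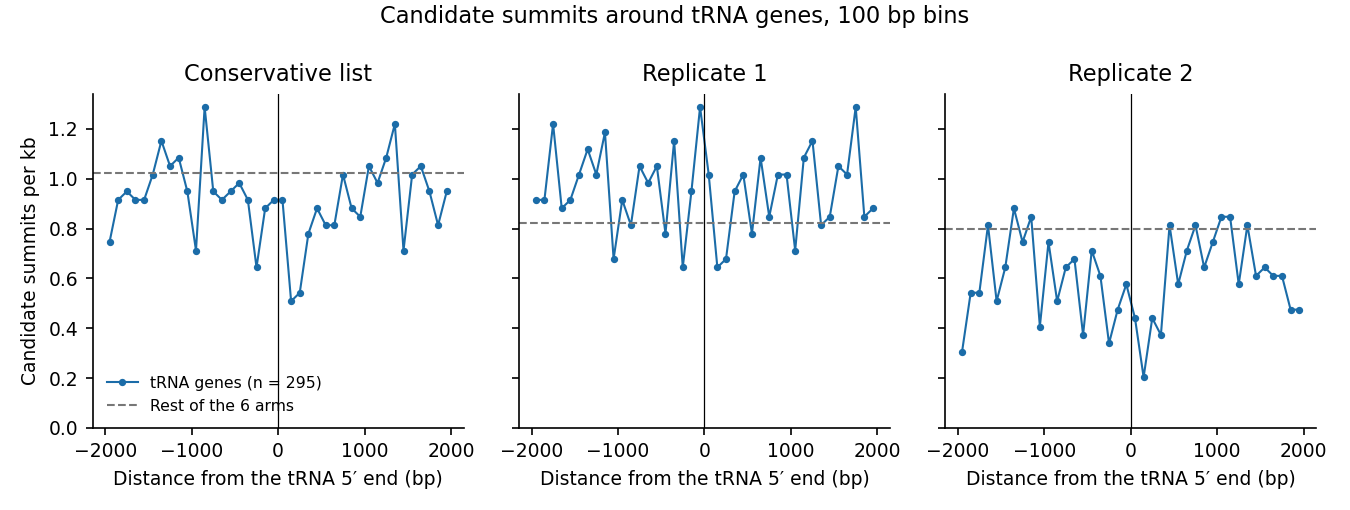
Candidate summits per kb in 100 bp bins by distance (bp) from the 5′ end of the 295 tRNA genes, along the direction of transcription, in the conservative list and in each replicate. The dashed line is the density in the rest of the 6 arms (1.02, 0.824 and 0.799 per kb); the bin just before 0 stands at 0.915 per kb in the conservative list, 1.29 in replicate 1 and 0.576 in replicate 2, and replicate 2 runs mostly below its line.

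The base composition around these summits differed from that of all candidates. Within 100 bp of a summit, candidates at tRNA genes had a median GC content of 42.8% (44.8% at isolated and 42.3% at clustered genes), against 46.8% for all candidates. The tRNA gene bodies themselves had 58.3% and the 500 bp before them 37.2%. The part of base composition in the candidate densities was not tested.

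Candidates at tRNA genes were of ordinary strength. Their signal in the conservative list had a median of 16.5 (quartiles 10.6 and 24.3, range 2.76 to 89.7, n = 220), against a median of 17.8 for all candidates (quartiles 11.3 and 25.1). The unit of the signal is not stated, so it ranks candidates within a list only. Of the candidates at tRNA genes, 12.3% were above a signal of 32.5, which 10% of all candidates passed. The median was 15.8 at isolated and 17 at clustered genes. In replicate 1 the medians were 10.3 at isolated and 13.3 at clustered genes, against 11.5 for all candidates, and in replicate 2 they were 10.5 and 10.1, against 11.0. At an IDR of 0.01 or less stood 1 of the 220 (0.455%), against 0.497% of all candidates; at 0.05 or less there were 2 (0.909%, against 1.12%), and at 0.1 or less 3 (1.36%, against 1.83%). The median IDR was 0.699, against 0.676 for all candidates.

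**Figure D4:**
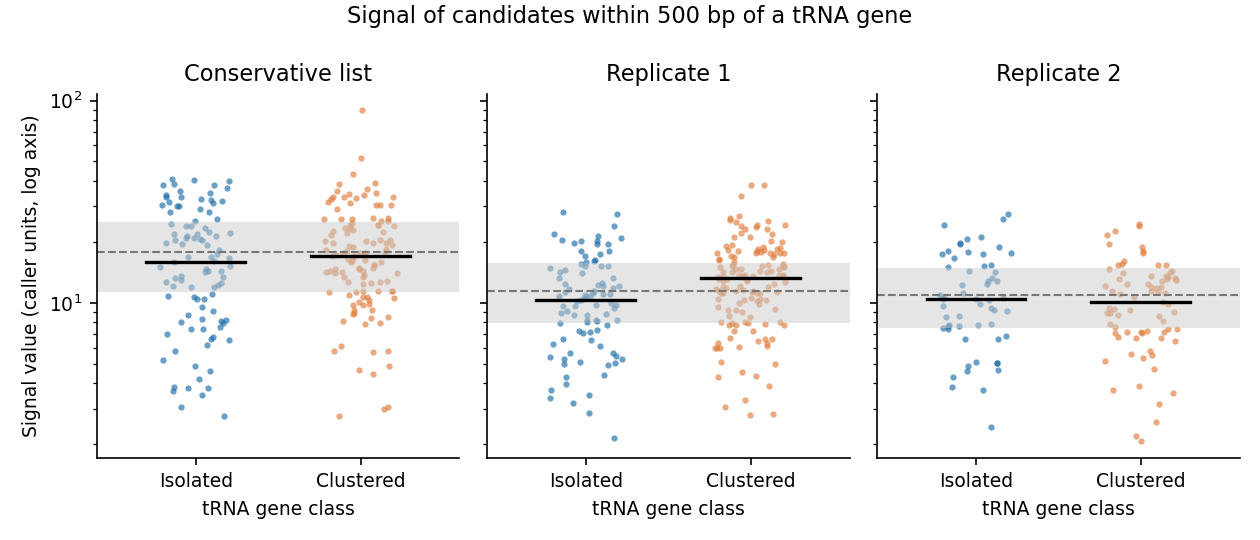
Signal value (caller units, log axis) of each candidate within 500 bp of an isolated or a clustered tRNA gene, in the conservative list and in each replicate. Black bars are medians (15.8 and 17 in the conservative list), and the grey band and dashed line are the quartiles and the median of all candidates; most points lie within or near the band, and the highest point is the peak at tRNA:Tyr-GTA-1-8 (89.7).

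After the tyrosine gene, the genes of highest candidate signal had IDR values above the 0.01 threshold, and the summits lay on both sides. A glycine gene, tRNA:Gly-GCC-1-10, came second, with 52.1 in the conservative list and an IDR of 0.0328; its summit was 504 bp after the 5′ end, and the replicates gave 25.1 and 24.4 in their own lists. A second tyrosine gene, tRNA:Tyr-GTA-1-3 on 2L, had 43.1 (IDR 0.356) at 304 bp before the 5′ end, with 26.9 in replicate 1 and 13 in replicate 2. The isolated tRNA:Arg-TCT-3-1 had 40.6 (IDR 0.168) at 295 bp before the 5′ end, with 19.6 in replicate 1 and 18.9 in replicate 2. These 3 genes lay between protein-coding genes and each had a candidate in both replicates. The isolated tRNA:Gln-TTG-2-1, in an intron of CG12535, had 40.0 (IDR 0.653) at 251 bp before the 5′ end, with 9.73 in replicate 1 and 27.5 in replicate 2. The isolated tRNA:Cys-GCA-4-1, in an intron of the RNA-binding protein gene mub, had 38.9 (IDR 0.250) at 324 bp after the 5′ end, with 15.9 in replicate 1 and 20.6 in replicate 2. The clustered tRNA:Gly-GCC-1-12 and tRNA:Trp-CCA-2-3 shared a candidate of 38.8 (IDR 0.390), which also lay within 500 bp of their neighbour tRNA:Trp-CCA-2-4.

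At a pair of the highest-ranked genes the candidate covered the tRNA gene itself. The isolated tRNA:Arg-TCG-4-1, in an intron of the chitin synthase gene kkv, had a signal of 40.9 (IDR 0.113) with the summit 70 bp before its 5′ end, and 27.4 in replicate 1 and 17.6 in replicate 2. That summit lay 494 bp before the annotated start of CG14668. The clustered tRNA:Val-CAC-2-1, between protein-coding genes and 11537 bp from the nearest protein-coding start, had 38.9 (IDR 0.387) with the summit 47 bp before its 5′ end. Replicate 2 gave 24.0 there and replicate 1 had no candidate within 500 bp in its own list. The peaks that the conservative list compared there had signals of 13.1 in the first input and 24.0 in the second. The sequences of both peaks are given with the tRNA gene in capitals; the first ends 1 base before the gene does. Of their bases, 52.1% were G or C in the arginine peak and 42.6% in the valine peak.
Peak at tRNA:Arg-TCG-4-1 (chr3R:5388016-5388299, plus strand): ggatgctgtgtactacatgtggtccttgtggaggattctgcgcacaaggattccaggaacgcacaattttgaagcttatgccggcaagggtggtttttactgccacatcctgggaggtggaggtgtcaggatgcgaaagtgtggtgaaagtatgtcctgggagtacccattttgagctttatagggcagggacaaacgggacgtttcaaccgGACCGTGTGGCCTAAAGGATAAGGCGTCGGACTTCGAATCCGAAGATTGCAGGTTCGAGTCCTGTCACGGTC
Peak at tRNA:Val-CAC-2-1 (chr3R:7451108-7451391, plus strand): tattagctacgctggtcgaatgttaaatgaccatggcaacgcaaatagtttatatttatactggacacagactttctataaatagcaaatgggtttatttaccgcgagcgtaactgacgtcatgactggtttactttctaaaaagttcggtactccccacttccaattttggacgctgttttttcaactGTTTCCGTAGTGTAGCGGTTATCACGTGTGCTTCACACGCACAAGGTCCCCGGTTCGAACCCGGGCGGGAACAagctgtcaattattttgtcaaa

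The replicates differed in how many tRNA genes had a candidate. Of 295 genes, both replicates had one at 103, replicate 1 alone at 105, replicate 2 alone at 26 and neither at 61. For the 1195 other short genes the counts were 457, 271, 102 and 365 in the same order. For the 13945 protein-coding 5′ ends they were 6609, 3461, 1509 and 2366. Replicate 1 had a candidate at 1.61 times as many tRNA genes as replicate 2 (1.37 times for isolated and 1.75 times for clustered genes), against 1.30 times for the other short genes and 1.24 times for protein-coding 5′ ends. Their ranked lists were of similar length, with 110309 candidates in replicate 1 and 106949 in replicate 2 on the 6 arms. The difference between these ratios was not tested.

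Isotypes ranged widely, over few genes each. All 8 phenylalanine genes and 18 of 20 glycine genes (90.0%) had a conservative candidate, against 2 of 10 asparagine genes (20%), 6 of 19 lysine genes (31.6%) and 4 of 12 isoleucine genes (33.3%). The 11-gene 2R cluster without candidates held 3 of the 10 asparagine, 1 of the 12 isoleucine and 4 of the 19 lysine genes, and 3 of the 26 arginine genes, of which 17 (65.4%) had a conservative candidate. Asparagine genes had 7 of 10 in replicate 1 and 2 of 10 in replicate 2, and lysine genes 7 of 19 and 5 of 19. Initiator methionine genes, whose product reads the start codon, had 3 of 6 in the conservative list and 6 of 6 in the pooled one. The single selenocysteine gene had a candidate in all 4 ranked lists.

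Position relative to protein-coding genes gave smaller contrasts. A total of 137 tRNA genes lay inside a protein-coding gene, 130 of them outside every annotated protein-coding exon. Of the genes inside, 51.8% had a conservative candidate, against 65.8% of the 158 outside. The contrast was smaller in the other lists: 65.0% against 70.3% in the pooled list and 68.6% against 72.2% in replicate 1. In replicate 2 it was 38.7% against 48.1%. A protein-coding start lay within 500 bp of 34 tRNA genes, 7 isolated (9.09%) and 27 clustered (12.4%). Of these 34 genes, 17 had a conservative candidate (50%), against 60.5% of the rest. The shares were 61.8% and 68.6% in the pooled list, 70.6% and 70.5% in replicate 1, and 41.2% and 44.1% in replicate 2. Of the 5 pseudogenes, 4 had a conservative candidate.

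Other genes that RNA polymerase III transcribes showed no thresholded summit in any list. Of the other short genes, 0.335% had one in the conservative list, 1.17% in the pooled list, 0.753% in replicate 1 and 0% in replicate 2. At shares this low, an absence over so few genes was near the background. The 100 annotated 5S rRNA genes, a tandem repeat coding for a ribosomal RNA, had a candidate at 0 genes in the conservative, pooled and replicate 1 lists and at 1 in replicate 2. Of 10 further genes, 6 had a conservative candidate, 9 a pooled one, 8 one in replicate 1 and 4 one in replicate 2. Over the other short genes the shares were 57.3%, 64%, 60.9% and 46.8% in the same order. So 6 and 4 of 10 were near the background and 9 and 8 of 10 above it, over few genes. The higher counts include the 3 U6 snRNA genes, which lie side by side on 3R with overlapping windows. They are not separate sites, so these counts are not read as an excess. The 7SK, 7SL, RNase P and RNase MRP genes are longer than 200 bp, so their windows were wider than those of the background. The highest conservative signals were 48.7 and 33.6 at the 7SK genes, whose RNA holds the elongation factor P-TEFb inactive, 32.6 at the spliceosomal snRNA:U6atac and 29.3 at RNaseMRP:RNA, which acts in rRNA processing. RNaseP:RNA, which trims the 5′ ends of tRNA precursors, had 19.2, and 1 of 2 genes of 7SL, the RNA of the signal recognition particle, had 9.26. That 7SL gene lies within a cluster of lysine tRNA genes on 3R, and its candidate is also counted among those at clustered tRNA genes. The 3 U6 snRNA genes had no candidate in the conservative list or in replicate 2, and each had one in the pooled list and in replicate 1.

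Protein-coding genes of the polymerase III machinery were near the background in the conservative lists. Of the listed symbols, 29 were found in the annotation and 7 were not. The 29 include Rpp20, Rpp30 and Trf4-1, which are not part of the polymerase or its transcription factors. Of the 29 genes, 1 had a thresholded conservative summit (3.45%), beside 2.62% of all protein-coding 5′ ends. In the pooled list 2 had one (6.90%), beside 3.29%. Replicate 1 had 0, beside 1.74%, and replicate 2 had 2 (6.90%), beside 2.11%. Of the same 29 genes, 20 had a conservative candidate within 500 bp of the 5′ end (69%), beside 72.3% of all protein-coding 5′ ends. Bdp1, a TFIIIB subunit, had a thresholded summit in the conservative and pooled lists and in replicate 2, and not in replicate 1. Its signal was 95.3 in the conservative list (IDR 0.00555), 29.2 in replicate 1 and 60.1 in replicate 2. Polr2H, a subunit that the 3 nuclear RNA polymerases share, had a thresholded summit in the pooled list and in replicate 2, with signals of 73.5, 15.7 and 59.1 in the conservative list, replicate 1 and replicate 2. The TFIIIB subunit Brf had 50.5 in the conservative list, 16.4 in replicate 1 and 33.0 in replicate 2, with no thresholded summit. La, which binds the ends of new polymerase III transcripts, had 39.3, and Trf, which takes the place of TBP in Drosophila TFIIIB, had 37.4. No candidate lay at the start of Maf1, the repressor of polymerase III, of Polr3A, its largest subunit, of Polr3K, or of the shared subunits Polr2K and Polr2L in any ranked list. Of all 13945 protein-coding 5′ ends, 2366 had no candidate in either replicate's list, so absence at a few of 29 genes was near the background.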

How the data were processed

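The deposited files are peak lists on dm6 in the narrowPeak layout, made by the authors from alignments and a control file, per the deposited file records. Neither aligner nor caller is given in the sources used here. The authors' signal value and scaled IDR are a score of unstated scale, and the global IDR is deposited as −log10. Of the 126333 peaks of the first input of the conservative list, 86687 were identical to peaks of replicate 1. Of the 126034 peaks of the second input, 86407 were identical to peaks of replicate 2. The summit is the peak start plus its offset. Genes came from Ensembl BDGP6.54, release 115, and sequences from RefSeq Release 6, whose arm lengths hold all peaks. Short background genes exclude tRNA genes and transposable element copies. Counts have 95% exact intervals, and a count of 0 a limit of 3 genes, which cover counting error only; no significance test was made. Genes and lists were chosen with earlier results of these data known. Named genes are those with a thresholded summit, the 10 with the highest conservative signal and the 3 largest clusters. Scoring was tested on simulated data. Python 3.11.15, pandas 2.3.3, numpy 2.4.6 and scipy 1.17.1 were used.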

Additional observations from a re-analysis of the deposited data

How the results depend on the processing

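No paired analysis was possible because there is 1 group and no result comes from a test. The count of tRNA genes with a thresholded conservative summit (1) was 0 within 200 bp, 3 within 1000 bp and 2 by any overlap of the peak with the window. It was 0 at an IDR of 0.001, 2 at an IDR of 0.05 and 0 without genes near a protein-coding start. In either replicate's own list it was 0. Below, leaving a replicate out means reading the other replicate's own list. The conservative list was not made again. The share of all tRNA genes with a candidate (59.3%) was 32.9% within 200 bp, 72.2% within 1000 bp, 65.4% by overlap, 67.8% in the pooled list, 32.9% with candidates at or above the median signal, 69.7% without 2R, and 43.7 to 70.5% with 1 replicate left out. For isolated genes (76.6%) it was 46.8% within 200 bp, 88.3% within 1000 bp, 48.1% with candidates at or above the median signal, and 59.7 to 81.8% with 1 replicate left out. For clustered genes (53.2%) it was 28.0% within 200 bp, 66.5% within 1000 bp, 63.3% in the pooled list, 27.5% with candidates at or above the median signal, 73.9% per locus, 64.5% without 2R, and 38.1 to 66.5% with 1 replicate left out. The difference (23.4 points) was 2.71 per locus, by construction over longer cluster windows, and 15.3 to 26.5 under the other 13 alternatives. The median signal (16.5) was 15 within 200 bp and 10.4 to 11.7 with 1 replicate left out, whose lists have their own scale. The density (0.928 per kb) was 0.561 without replicate 1 and 0.975 without replicate 2. Otherwise the causes were not tested. Leaving out pseudogenes, 2R or genes near a start was chosen after seeing the data. The isolated minus clustered difference, the only value that could change sign, stayed positive under all 14 alternatives. On 3R alone, which was not among them, isolated genes had the lower share in the conservative list (61.1% against 67.2%) and in replicate 2. Unknown depth limits all counts of absent candidates.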
